A study of Mus musculus with 12 samples.

Results

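The genes described here are the axon guidance ligands and receptors on the array: semaphorins with their plexin and neuropilin receptors, ephrins with their Eph receptors, netrins with Dcc and the Unc5 receptors, and Slits with the Robo receptors. They were chosen by family name, not by their values. Every probe set (a group of short probes that reports 1 transcript) counted as a member if the platform annotation gave it a single gene symbol of one of these families. This gave 99 of 22690 probe sets, for 59 of 12393 genes. Of these genes, 33 encode ligands and 26 encode receptors. The rule also caught Unc50 by its letters. It encodes a homolog of the worm protein unc-50 and is no netrin receptor, so it was left out, and it passed no test in any comparison. Messenger RNA was measured with 12 Affymetrix arrays in the cerebellum of mice of the BALB/c Npc1 strain. The groups were Npc1-/- (null) at postnatal day 49 (P49), Npc1+/+ (wild type) at P49, null at P21 and wild type at P21. Each group held 3 arrays, and each array held 1 individual animal per the labels. None of the animals was treated, and all were kept in the same housing. Per the labels 11 animals were female and 1, null P49 replicate 1, was male. Npc1 encodes a lysosomal membrane protein that moves cholesterol out of the lysosome. Mice without it store lipids and lose Purkinje cells of the cerebellum as they age.

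Axon guidance ligands and receptors steer growing axons and migrating neurons by attraction and repulsion. Secreted class 3 semaphorins act through a neuropilin bound to an A plexin, transmembrane semaphorins bind plexins directly, ephrins and Eph receptors signal in both directions between touching cells, netrins attract through Dcc or repel through Unc5 receptors, and Slits repel through Robo receptors. In the cerebellum these systems guide granule neurons and the axons that enter or leave the cortex. Many stay on in the adult brain, where they act on synapses, on blood vessels and on glia.

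The Npc1 probe set, as a check of the genotype labels, read 10.53, 9.96 and 9.88 on the log2 scale in null P49 cerebella against 11.35, 11.57 and 11.75 in wild-type P49 cerebella. At P21 it read 10.12, 8.25 and 9.65 in null cerebella against 11.06, 11.32 and 11.48 in wild-type cerebella. The groups did not overlap at either age. The difference was -1.43 ± 0.37 at P49 (adjusted p = 0.0591) and -1.95 ± 0.37 at P21 (adjusted p = 0.101), its size is uncertain since null values reach below the filter, and which part of the transcript the probes cover is not given in the sources used here. The female-specific transcript Xist and the Y-linked gene Eif2s3y put the label female in doubt on 3 arrays. They read 9.28 and 12.72 on wild-type P21 replicate 2, and 13.36 and 12.67 on null P21 replicate 3. On null P21 replicate 2 they read 13.01 and 9.25, which is less clear. The Y-linked genes Kdm5d and Uty read 10.17 and 9.76 there, and at most 8.82 and 8.49 on the arrays not in doubt. Null P21 replicates 2 and 3 thus gave Xist together with raised Y-linked signal. The other arrays had Xist values of 15.61 or more and Eif2s3y values of 8.91 or less. The array labelled male had an Xist value of 15.63, within the range of the arrays that matched the label female. Null P21 replicate 2 also stood apart, since it was the highest of the 12 arrays for 24.4% of all genes tested and the lowest for 23.5%. Results that rest on these arrays are given with and without them. Leaving out the 3 arrays in doubt leaves a single null P21 array. All 8 Purkinje cell markers and all 7 granule neuron markers with a probe set lay above the filter described next, while 3 of 4 brainstem neuron markers lay below it.

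Values are given as log2(intensity + 16) after quantile normalization, and a difference of 1 on this scale is a doubling. Each gene was represented by its brightest probe set. It was tested if its mean over the 12 arrays reached the 40th percentile of all probe sets, 9.93 on the log2 scale. Of the 59 genes, 36 were tested, which is 61.0% against 63.2% of all genes. The families differed in how many of their genes were bright enough. The tested genes were 13 of 17 semaphorins, 8 of 9 plexins and neuropilins, 4 of 8 ephrins, 4 of 11 Eph receptors, 5 of 8 genes of the netrin group and 2 of 6 Slits and Robos. No EphB receptor and no Slit was tested. Just above the filter lay Sema6a, Sema4b and Sema3e with means of 9.98, 10.09 and 10.12. Just below it lay Slit3, Sema5b and Efna1 with means of 9.93, 9.92 and 9.83. The netrin receptor gene Dcc was also dim, with a mean of 9.32. Whether a dim gene lay above background is unknown, because no detection calls were used. The spread between animals was wider in these genes than over the array. The SD within groups had a median of 0.28 in the 36 tested genes and of 0.19 in all 7835 tested genes. It was lowest in Plxnb2, at 0.09, and highest in Epha7, at 0.46.

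**Figure D1:**
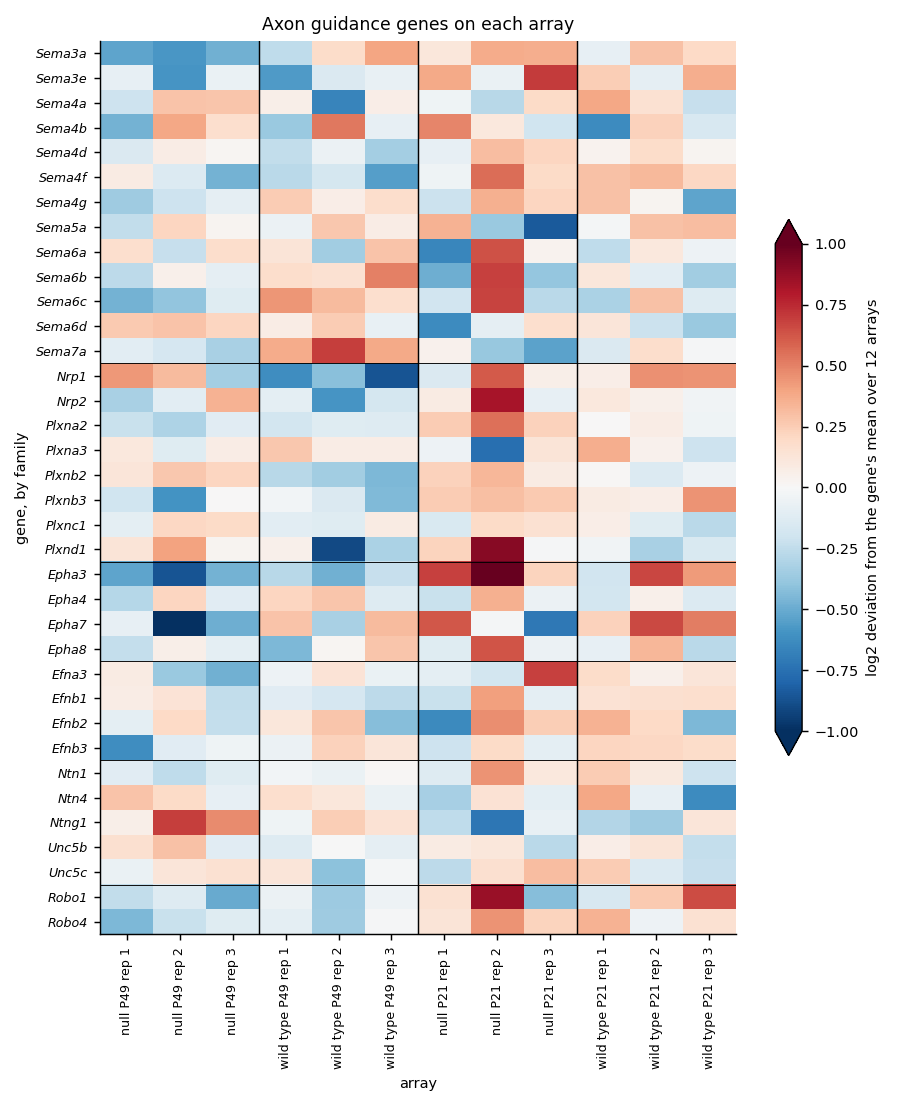
Deviation of each of the 36 tested axon guidance genes (down the page, by family) from its own mean over the 12 arrays, on the log2 scale, for each array (across). Red is above and blue below the gene's mean, and deviations beyond 1 in either direction are drawn in the end colour. The column of null P21 replicate 2 holds the most deep red cells. Sema3a is blue on all 3 null P49 arrays, as are other genes such as Plxna2 and Sema7a, and Epha3 is blue on all null and wild-type P49 arrays.

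At P49, an age at which Purkinje cell markers were already low in the null, the null cerebellum differed from wild type in 2 axon guidance genes. Plxnb2, which encodes a receptor of class 4 semaphorins that granule cell precursors use in mouse cerebellar development, was higher. Sema7a, which encodes a semaphorin anchored to the membrane by a lipid and binds plexin C1 and integrins, was lower. These were 2 of the 36 tested genes, while 2.65% of all 7835 tested genes were called (limma, Benjamini-Hochberg adjusted p under 0.05). By direction, 1.52% of all genes were called higher in the null and 1.14% lower. Over the 36 genes the median difference, null minus wild type, was -0.04, and it was -0.02 over all genes. The difference was positive in 17 of the 36 and negative in 19. No direction was shared by the whole set. Without the 3 P21 arrays whose sex label is in doubt the members called at P49 were Plxnb2, Sema6c and Sema7a.

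Plxnb2 read 13.57, 13.72 and 13.67 in null P49 cerebella, against 13.17, 13.10 and 13.00 in wild-type P49 cerebella. Every null array was above every wild-type array. The difference was 0.56 ± 0.10 (SE, n = 3 each), a 1.48-fold higher signal in the null, with an adjusted p of 0.00606 in limma. The call held under all 20 alternatives, with adjusted p between 0.00155 and 0.0493. At P21 the gene read 13.68, 13.78 and 13.53 in null cerebella against 13.46, 13.31 and 13.40 in wild-type cerebella. The groups did not overlap at that age either, but the difference of 0.27 ± 0.10 did not pass the test (adjusted p = 0.424). The gene has 1 probe set on this array.

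Sema7a read 13.65, 13.58 and 13.43 in null P49 cerebella, against 14.13, 14.45 and 14.13 in wild-type P49 cerebella. All null arrays lay below all wild-type arrays. The difference was -0.68 ± 0.15 (SE, n = 3 each), or 0.623 times the wild-type signal, with an adjusted p of 0.0225. A second probe set of the gene, dimmer than the first, read 9.71, 9.07 and 9.67 in null and 10.52, 10.49 and 10.56 in wild-type P49 cerebella. Its difference of -1.04 ± 0.27 had an adjusted p of 0.0676 over all probe sets. The call of the brighter probe set was lost without wild-type P49 replicate 1, 2 or 3 (adjusted p = 0.0552, 0.136 and 0.0501) and without null P49 replicate 2 or 3 (0.09 and 0.146). At P21 Sema7a read 13.80, 13.37 and 13.22 in null and 13.61, 13.93 and 13.74 in wild-type cerebella, and the groups overlapped. The difference there was -0.30 ± 0.15 (adjusted p = 0.510). On its brightest probe set the receptor gene Plxnc1 was not called at either age, with differences of 0.15 ± 0.15 at P49 and 0.17 ± 0.15 at P21. Its probe sets did not move alike at P49. A dimmer one above the filter read 10.54, 11.35 and 10.74 in null and 10.32, 10.15 and 10.36 in wild type, without overlap. The others, below the filter, had means of 9.49 in null against 9.15 in wild type, and of 9.46 against 9.63.

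The promoters of both genes are shown because these are the members whose signal differed with genotype. Each is the RefSeq window of 300 bases around a transcription start in GRCm38.p6, most of it upstream, on the gene's own strand, with the GC box GGGCGG or its reverse complement in capitals. The Plxnb2 window is chr15:89180739-89181038 on the minus strand, 1 of 2 windows of that gene, and the Sema7a window is chr9:57939862-57940161 on the plus strand.
Plxnb2: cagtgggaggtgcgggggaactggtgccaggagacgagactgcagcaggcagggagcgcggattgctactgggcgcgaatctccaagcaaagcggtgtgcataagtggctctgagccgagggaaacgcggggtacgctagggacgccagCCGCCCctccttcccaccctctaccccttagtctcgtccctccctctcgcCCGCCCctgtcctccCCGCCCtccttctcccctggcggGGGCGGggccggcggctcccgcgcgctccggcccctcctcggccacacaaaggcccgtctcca
Sema7a: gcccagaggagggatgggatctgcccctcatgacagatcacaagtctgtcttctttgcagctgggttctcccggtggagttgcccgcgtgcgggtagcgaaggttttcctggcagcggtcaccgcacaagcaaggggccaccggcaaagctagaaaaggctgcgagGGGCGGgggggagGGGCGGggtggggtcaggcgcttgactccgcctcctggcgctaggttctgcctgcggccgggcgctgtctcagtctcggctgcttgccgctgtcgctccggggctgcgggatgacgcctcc
The Plxnb2 window holds 4 GC boxes and 27 CpG dinucleotides, and the Sema7a window holds 2 GC boxes and 23 CpG dinucleotides. Neither holds a TATA box, searched as TATAAA, on either strand. The E box, searched as CACGTG, is likewise in neither. GC boxes were common in this family of genes. At least 1 was in 75.0% of the 64 windows of 51 members, against 55.4% of the windows of all genes on the array and 35.7% of all windows in the table. A match of these letters is a description of the sequence and does not show that a factor binds there.

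**Figure D2:**
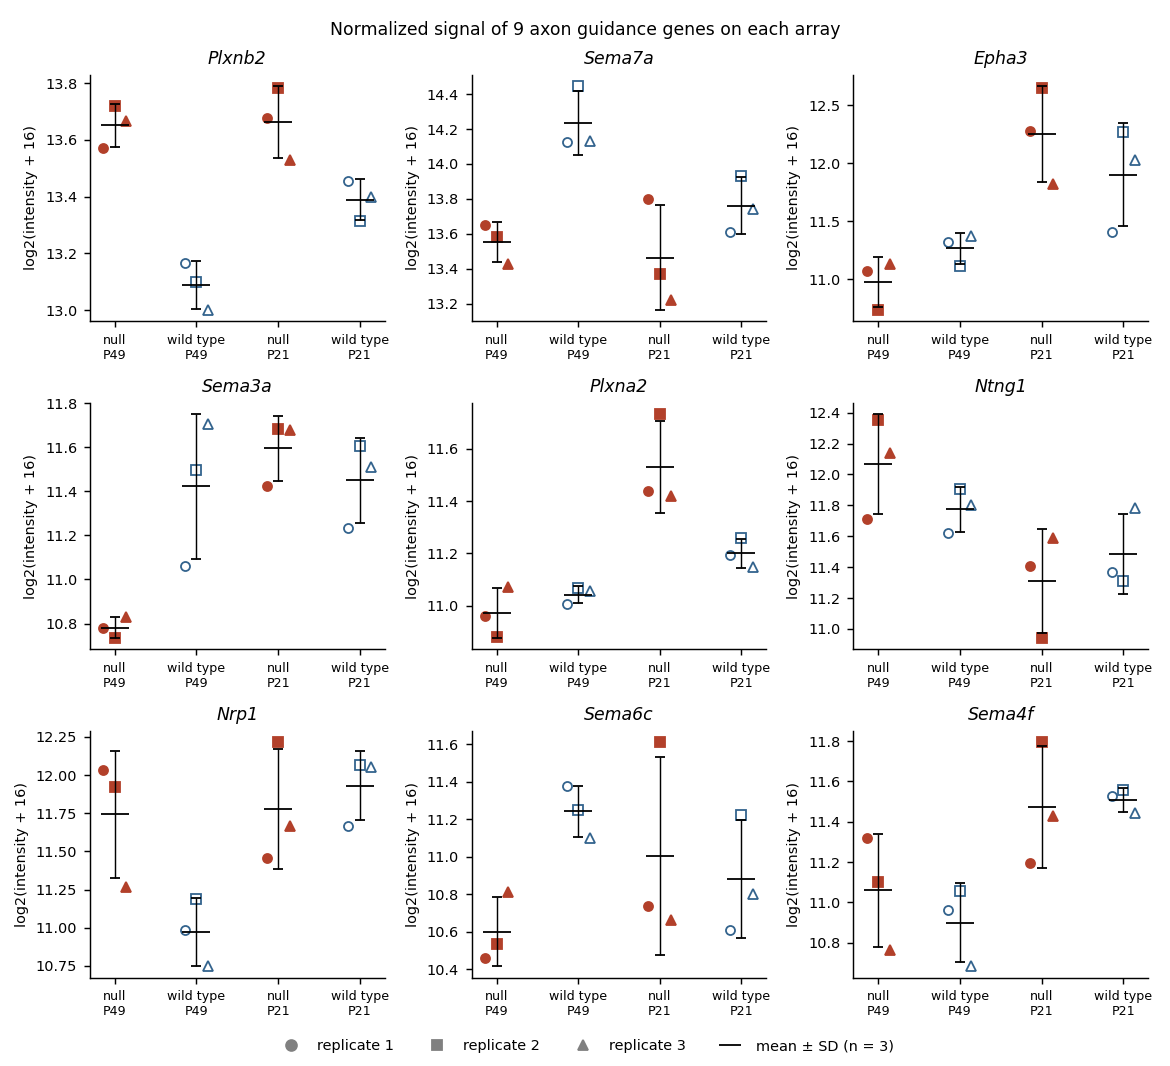
Signal of 9 axon guidance genes on each array, as log2(intensity + 16) after normalization (vertical axis of each panel), for null P49, wild-type P49, null P21 and wild-type P21 cerebella (across). Symbols are the 3 replicates, the bar and whiskers are the mean and SD, and each panel has its own scale. The 6 null arrays of Plxnb2 lie above its 6 wild-type arrays.

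Among the other ligands at P49, Sema3a, a secreted repellent, came closest to the threshold. It read 10.78, 10.73 and 10.83 in null and 11.06, 11.50 and 11.71 in wild-type P49 cerebella. The null arrays were all lower and lay close together, while the wild-type arrays were spread out. The difference of -0.64 ± 0.18 had an adjusted p of 0.085, and without wild-type P49 replicate 1 it passed the test (0.0283). Its further probe sets lay below the filter and differed in sign. The brighter of them had means of 9.40 in null and 9.33 in wild-type P49 cerebella, and the dimmer had 6.21 and 8.03. Sema6c, a transmembrane semaphorin, read 10.46, 10.53 and 10.81 in null and 11.38, 11.25 and 11.10 in wild-type P49 cerebella. These groups did not overlap, and the difference of -0.64 ± 0.24 did not pass the test over the 12 arrays (adjusted p = 0.281). Its further probe sets, both below the filter, had differences of 0.40 and 0.28, opposite in sign. The ephrins with the smallest p were Efnb3, a midline barrier for corticospinal axons in mice, at -0.36 ± 0.16, and Efna3 at -0.27 ± 0.23. Ntng1, a lipid-anchored netrin that binds neither Dcc nor Unc5 receptors, had a difference of 0.29 ± 0.20. All 3 had adjusted p above 0.4.

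Among the other receptors at P49, Nrp1, the neuropilin that binds Sema3a and vascular endothelial growth factor, read 12.04, 11.92 and 11.26 in null cerebella. In wild-type P49 cerebella it read 10.98, 11.19 and 10.75. The null arrays were all above the wild-type arrays, although null replicate 3 was nearer to them. The difference was 0.77 ± 0.23, with an adjusted p of 0.132 that fell below the threshold only without null P21 replicate 2 (0.0412). Further probe sets of Nrp1 gave 0.52 ± 0.24 and, below the filter, 0.74. The 4 tested Eph receptors all had negative differences, with a median of -0.24, and none was called. Epha7 had -0.62 ± 0.32 and Epha3 had -0.29 ± 0.23. Of the remaining receptors, Unc5b, a repellent netrin receptor, had 0.19 ± 0.15, Robo1 had -0.13 ± 0.30 and Robo4, the Robo of blood vessels, had -0.11 ± 0.20.

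By family, the median difference at P49 was 0.21 in the 8 plexins and neuropilins, 0.17 in the 5 genes of the netrin group, 0.00 in the 13 semaphorins, -0.12 in the 2 Robos, -0.15 in the 4 ephrins and -0.24 in the 4 Eph receptors. The groups did not overlap in 2 genes that were higher in the null (Nrp1 and Plxnb2), where 11.2% of all genes did so. They did not overlap in 6 genes that were lower (Ntn1, Sema3a, Sema4g, Sema6b, Sema6c and Sema7a), where 12.0% of all genes did so. All 6 were ligands, of which 20 were tested, and both that were higher were receptors, of which 16 were tested. Over all tested members the signs did not split in this way, with 10 of 20 ligands and 9 of 16 receptors negative. At an unadjusted p under 0.05 stood 6 of the 36 genes, against 11.3% of all genes. Of the 32 further probe sets of tested members, 18 had the sign of the brightest probe set of their gene. Among the 23 genes below the filter, none of which was called when all genes were fitted with no filter, differences at P49 ran from -0.94 in Epha6 to 1.64 in Sema3b.

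**Figure D3:**
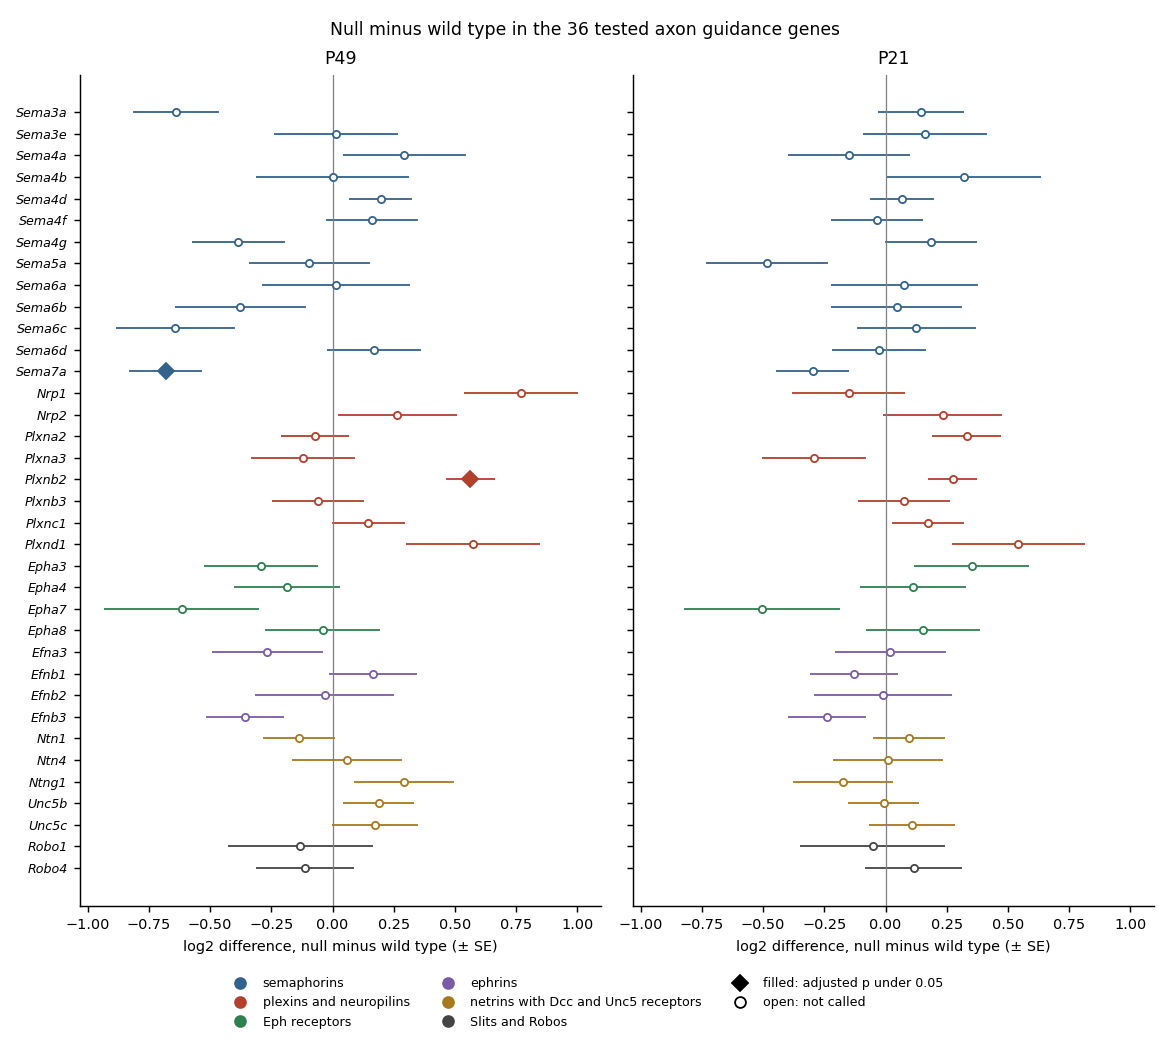
Log2 difference, null minus wild type, at P49 (left) and P21 (right) for the 36 tested genes, by family, with the standard error from limma. Filled diamonds mark adjusted p under 0.05, which only Plxnb2 (0.56) and Sema7a (-0.68) at P49 reached.

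Markers of several cell types differed between the P49 genotypes as well, and their part in the values above was not tested. In bulk tissue, fewer cells of a type and less RNA per cell cannot be told apart. Of 12 microglia markers 11 had a probe set, with Aif1, Itgam and Trem2 below the filter. Their summed intensity was 138556 to 176352 in null and 29155 to 31568 in wild-type P49 cerebella, and all 8 that were tested were called higher. The summed Purkinje cell markers were 327101 to 473307 in null and 629221 to 653250 in wild-type P49 cerebella, with 6 of 8 called lower. The 8 astrocyte and Bergmann glia markers summed to 509002 to 547558 in null and 390789 to 403842 in wild-type P49 cerebella. Of these Gfap, at 3.30 ± 0.17, and Aqp4 were called higher. The median of the 8 was 0.13, and Slc1a3, the glutamate transporter of Bergmann glia, was at -0.44 ± 0.18 and was not called. Summed markers of cerebellar interneurons were 168750 to 189669 in null and 211889 to 220954 in wild-type P49 cerebella, with all 5 tested markers negative and none called. Oligodendrocyte markers summed to 384820 to 387834 in null and 392865 to 417445 in wild-type P49 cerebella, with none of 8 called. Meningeal markers summed to 34134 to 37392 in null and 19707 to 26255 in wild-type P49 cerebella, with none of 6 called. Choroid plexus markers summed to 77962 to 210169 in null and 7616 to 34163 in wild-type P49 cerebella, with none of 2 called. Within groups this sum varied widely, from 6748 to 177282 in null and from 5878 to 190950 in wild-type P21 cerebella. The sums of granule neuron markers overlapped, at 498239 to 514128 in null and 508978 to 543281 in wild-type P49 cerebella. So did those of endothelium, at 20069 to 24699 in null and 18181 to 23014 in wild-type P49 cerebella.

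At P21 none of the 36 genes was called, and 0.0638% of all genes were, 0.0511% higher and 0.0128% lower in the null. At an unadjusted p under 0.05 stood 2 of the 36, Plxnb2 and Plxna2, against 10.1% of all genes. Plxna2, which encodes a receptor for class 6 semaphorins that guides granule cell migration in mice, read 11.44, 11.73 and 11.42 in null and 11.19, 11.26 and 11.15 in wild-type P21 cerebella. The groups did not overlap, and the difference was 0.33 ± 0.14 (adjusted p = 0.484). Groups that did not overlap were found in 3 of the 36 genes, all higher in the null, where 6.18% of all genes did so. These were the plexins Plxna2, Plxnb2 and Plxnd1, and in each of them null P21 replicate 2 was the highest null array. Of the 8 tested plexins and neuropilins 6 had positive and 2 negative differences, with Plxna3 at -0.29 ± 0.21. No member was lower in the null without overlap, where 5.6% of all genes were. Further probe sets of the tested members had the sign of the brightest in 17 of 32 cases. The median difference over the 36 genes was 0.07, and -0.00 over all genes. The members' median had no stable sign over the alternatives, running from -0.09 without the 3 arrays whose sex label is in doubt to 0.18 without null P21 replicate 1. It was -0.04 without null P21 replicate 2, 0.02 without wild-type P21 replicate 3 and 0.01 with values as deposited, where all genes had -0.02. Null P21 replicate 2 was the highest of the 12 for 19 of the 36 genes, or 52.8%, against 24.4% of all genes. Summed microglia markers were 49429 to 56419 in null and 28517 to 36593 in wild-type P21 cerebella, and summed oligodendrocyte markers were 388652 to 498426 in null and 514844 to 619581 in wild-type P21 cerebella. Their part in the P21 values was not tested.

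Whether the genotype difference itself differed between the ages was tested by the interaction, which is the difference at P49 minus the difference at P21. None of the 36 genes was called, against 0.549% of all genes, 0.345% above 0 and 0.204% below. At an unadjusted p under 0.05 stood 3 of the 36, against 8.44% of all genes. The smallest unadjusted p-values belonged to Sema3a, at -0.78 ± 0.25 (adjusted p = 0.331), to Nrp1, at 0.92 ± 0.33 (adjusted p = 0.428), and to Sema6c, at -0.77 ± 0.34 (adjusted p = 0.574). On the brightest probe set the difference at P21 was 0.15 ± 0.18 in Sema3a, -0.15 ± 0.23 in Nrp1 and 0.13 ± 0.24 in Sema6c. The second probe set of Nrp1 differed from this, at 0.54 ± 0.24 at P21, with overlapping groups, and an interaction of -0.02 ± 0.34. The further probe sets of Sema3a lay below the filter. The brighter of them had means of 9.40 in null and 9.33 in wild type at P49, and 9.65 and 9.55 at P21. The dimmer had 6.21 and 8.03 at P49, and 6.87 and 6.65 at P21. Sema6c read 10.74, 11.61 and 10.67 in null and 10.61, 11.23 and 10.80 in wild-type P21 cerebella, so that the groups overlapped widely. For the genes called at P49 the interaction was 0.29 ± 0.14 in Plxnb2 (adjusted p = 0.622) and -0.38 ± 0.21 in Sema7a (adjusted p = 0.691). A genotype difference that was present at one age and absent at the other was therefore not shown for either. The members' median interaction was -0.07, and it ran from -0.13 (without null P21 replicate 1 or null P49 replicate 3) to 0.06 (values as deposited, where all genes had 0.03). It was 0.04 without null P21 replicate 2, 0.01 without the 3 arrays whose sex label is in doubt, -0.02 without wild-type P49 replicate 3 and -0.03 without wild-type P49 replicate 1.

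Between P21 and P49 the null cerebellum changed in 4 axon guidance genes, the most of any comparison. Epha3, a receptor of ephrin-A ligands, Sema3a and Plxna2 were lower at P49, and Ntng1 was higher. Over all genes 6.23% were called, with 3.45% lower at P49 and 2.78% higher. The comparison shares its null P49 arrays with the genotype comparison at that age. The members' median difference, P49 minus P21, was -0.14, against -0.01 over all genes, and 25 of 36 were negative. Over the alternatives the members' median ran from -0.27 (without null P21 replicate 1) to -0.02 (without null P21 replicate 2). It was likewise -0.02 with values as deposited, where all genes had 0.03. It was -0.24 without null P49 replicate 2. Without the 3 arrays whose sex label is in doubt it was -0.03, against -0.04 over all genes. That fit left a single null P21 array. The null arrays in doubt are all from P21, so a part of sex in this comparison cannot be told apart from age.

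Epha3 read 11.07, 10.73 and 11.13 in null P49 cerebella, against 12.28, 12.65 and 11.82 in null P21 cerebella. Every P49 array was well below every P21 array. The difference of -1.28 ± 0.23 (SE, n = 3 each), or 0.413 times the P21 signal, was the largest of any tested member and had an adjusted p of 0.00574. It was called under all 20 alternatives, with adjusted p between 0.0035 and 0.0406. Of its other probe sets, one gave -0.60 ± 0.28 and one below the filter gave -0.84, and neither had overlapping groups. In wild type, Epha3 read 11.32, 11.12 and 11.37 at P49 and 11.41, 12.27 and 12.03 at P21. Those groups did not overlap either, and the difference of -0.63 ± 0.23 did not pass the test (adjusted p = 0.334). The fall was not shown to differ between genotypes, since the interaction was -0.64 ± 0.33 (adjusted p = 0.646).

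Sema3a read 10.78, 10.73 and 10.83 in null P49 cerebella, against 11.42, 11.68 and 11.68 in null P21 cerebella. The ages did not overlap. The difference was -0.81 ± 0.18, or 0.57 times the P21 signal, with an adjusted p of 0.0142. The call was lost when only the arrays of the 2 groups were fitted (0.0504) and without null P49 replicate 2 (0.0701). It was also lost without the 3 arrays whose sex label is in doubt, which left a single null P21 array. Its other probe sets lay below the filter and had differences of -0.66 and -0.25 with overlapping groups. In wild type the gene read 11.06, 11.50 and 11.71 at P49 and 11.23, 11.61 and 11.51 at P21, with a difference of -0.03 ± 0.18. The interaction of -0.78 ± 0.25 did not pass the test (adjusted p = 0.331).

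Plxna2 read 10.96, 10.88 and 11.07 in null P49 cerebella, against 11.44, 11.73 and 11.42 in null P21 cerebella, again with no overlap. The difference was -0.56 ± 0.14, or 0.679 times the P21 signal (adjusted p = 0.0318). It was called in 11 of 20 alternatives. Among those that ended the call were values as deposited (0.091) and leaving out null P21 replicate 2 (0.0693) or null P49 replicate 1, 2 or 3 (0.0797, 0.131 and 0.0669). In wild type it read 11.00, 11.07 and 11.06 at P49 and 11.19, 11.26 and 11.15 at P21, a difference of -0.16 ± 0.14 (adjusted p = 0.793). Those groups did not overlap either. The fall was not shown to differ between genotypes, since the interaction was -0.40 ± 0.20 (adjusted p = 0.622).

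Ntng1 was the one member that was called higher at P49. It read 11.71, 12.35 and 12.14 in null P49 cerebella, against 11.41, 10.94 and 11.59 in null P21 cerebella. The groups did not overlap, although P49 replicate 1 and P21 replicate 3 were close. The difference was 0.76 ± 0.20, a 1.69-fold higher signal at P49, with an adjusted p of 0.0432. This was the least stable of the calls, lost in 14 of 20 alternatives, with adjusted p between 0.0254 and 0.196. A dimmer probe set gave 0.47 ± 0.25 in the null, with overlapping groups, and 0.45 ± 0.25 in wild type, where every P49 array was higher. On the brighter probe set, in wild type the gene read 11.62, 11.91 and 11.80 at P49 and 11.37, 11.31 and 11.78 at P21, and those groups overlapped. The rise was not shown to differ between genotypes, since the interaction was 0.47 ± 0.29 (adjusted p = 0.74).

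**Figure D4:**
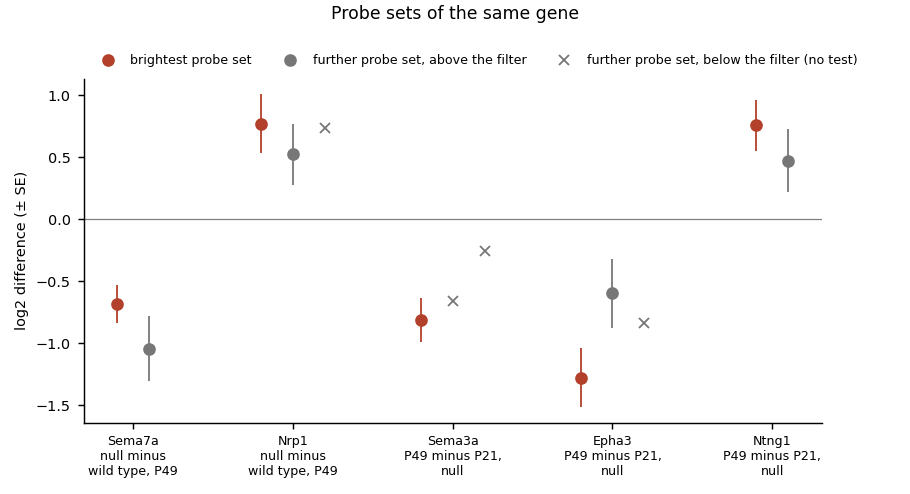
Log2 difference (vertical axis, with the standard error where tested) for each probe set of 5 axon guidance genes. Red points are the brightest probe set, grey points further probe sets above the filter, and crosses probe sets below it, which were not tested. Within each gene all probe sets lie on the same side of 0.

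The promoters of the 3 members that fell together in the null are shown with the same marking. Epha3 is at chr16:63864126-63864425 on the minus strand, Sema3a at chr5:13396534-13396833 on the plus strand and Plxna2 at chr1:194619579-194619878 on the plus strand, all in GRCm38.p6 from RefSeq.
Epha3: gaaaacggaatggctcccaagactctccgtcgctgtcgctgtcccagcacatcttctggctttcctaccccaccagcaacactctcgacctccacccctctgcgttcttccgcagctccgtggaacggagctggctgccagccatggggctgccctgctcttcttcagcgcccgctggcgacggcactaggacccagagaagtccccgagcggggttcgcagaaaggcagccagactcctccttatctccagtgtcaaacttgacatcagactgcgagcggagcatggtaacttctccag
Sema3a: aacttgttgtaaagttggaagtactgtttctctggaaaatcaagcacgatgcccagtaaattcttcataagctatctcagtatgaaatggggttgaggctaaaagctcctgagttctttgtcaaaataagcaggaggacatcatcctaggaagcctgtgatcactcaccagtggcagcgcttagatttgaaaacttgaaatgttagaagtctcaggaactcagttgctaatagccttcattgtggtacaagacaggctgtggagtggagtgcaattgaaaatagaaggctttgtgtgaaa
Plxna2: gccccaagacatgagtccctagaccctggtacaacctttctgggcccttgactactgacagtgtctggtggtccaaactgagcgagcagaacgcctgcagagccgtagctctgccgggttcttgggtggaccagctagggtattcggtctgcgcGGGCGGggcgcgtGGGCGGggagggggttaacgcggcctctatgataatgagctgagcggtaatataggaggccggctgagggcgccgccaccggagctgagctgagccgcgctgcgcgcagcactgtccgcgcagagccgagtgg
The windows differ in base composition. Plxna2 has 2 GC boxes, 25 CpG dinucleotides and 64.7% GC, Epha3 has no GC box but 18 CpG dinucleotides and 60.7% GC, and Sema3a has no GC box, 2 CpG dinucleotides and 41.3% GC. No TATA box or E box was found in any of them. The median over the members' windows was 20 CpG dinucleotides, against 17 for all genes on the array.

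The null P49 and P21 arrays did not overlap in 2 members that were higher at P49 (Ntng1 and Sema6d), where 10.5% of all genes did so. They did not overlap in 6 that were lower (Epha3, Plxna2, Plxnb3, Robo4, Sema3a and Sema3e), where 12.0% did so. At an unadjusted p under 0.05 stood 9 of the 36, against 20.9% of all genes. By family, all 4 Eph receptors, all 4 ephrins and both Robos had negative differences, with medians of -0.36, -0.15 and -0.51. The 5 genes of the netrin group had a median of 0.14, with 4 of them positive. Further probe sets had the sign of the brightest in 24 of 32 cases. With the same arrays, 7 of 8 Purkinje cell markers were called lower at P49 and all 8 tested microglia markers were called higher. Summed Purkinje cell markers were 327101 to 473307 at P49 and 575705 to 657549 at P21 in the null. Astrocyte and Bergmann glia markers summed to 509002 to 547558 at P49 and 372997 to 405104 at P21, with Gfap and Aqp4 called higher and Gdf10 lower at P49. Oligodendrocyte markers summed to 384820 to 387834 at P49 and 388652 to 498426 at P21, with 3 of 8 called lower. Of 6 meningeal markers Dcn and Ogn were called higher at P49, while the sums overlapped, at 34134 to 37392 at P49 and 14849 to 42672 at P21. The part of these cell types in the differences above was not tested.

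In wild type none of the 36 genes was called between the ages, and 0.702% of all genes were, 0.166% higher and 0.536% lower at P49. Nrp1 had the smallest p. It read 10.98, 11.19 and 10.75 in wild-type P49 cerebella, against 11.67, 12.07 and 12.06 in wild-type P21 cerebella. The ages did not overlap, and the difference was -0.96 ± 0.23, or 0.515 times the P21 signal, with an adjusted p of 0.108. It passed the test when only these 6 arrays were fitted (0.0142) and without null P21 replicate 2 (0.0264). In the null the same gene read 12.04, 11.92 and 11.26 at P49 and 11.46, 12.22 and 11.66 at P21, with a difference of -0.04 ± 0.23. The probe sets of Nrp1 did not give the same contrast between genotypes. A second probe set gave -0.43 ± 0.24 in the null, where the groups overlapped, and -0.41 ± 0.24 in wild type. The remaining one, below the filter, gave 0.04 in the null and -0.87 in wild type.

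Sema4f, a transmembrane class 4 semaphorin, read 10.96, 11.06 and 10.68 in wild-type P49 and 11.53, 11.56 and 11.44 in wild-type P21 cerebella. These groups lay clearly apart, and the difference of -0.61 ± 0.19 did not pass the test (adjusted p = 0.224). In the null it read 11.32, 11.10 and 10.76 at P49 and 11.19, 11.79 and 11.43 at P21, with overlap. Sema7a was at 0.48 ± 0.15 in wild type (adjusted p = 0.234), and passed the test without the 3 arrays whose sex label is in doubt (0.035). Plxnb2 was at -0.30 ± 0.10 (adjusted p = 0.287). For Plxnb2 and Sema7a, the wild-type P49 arrays used here are also those of the genotype comparison.

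The other families in wild type gave no call either. Epha7 was at -0.37 ± 0.32, while its other probe set above the filter was at 0.21 ± 0.20, opposite in sign. Efnb1, a ligand of EphB receptors, was at -0.34 ± 0.18 and Efnb3 at -0.10 ± 0.16. In the netrin group Ntng1 was at 0.29 ± 0.20 and Ntn4, a netrin of basement membranes, at 0.18 ± 0.22. Robo1 was at -0.41 ± 0.30 and Robo4 at -0.31 ± 0.20. The receptors leaned to lower values at P49, with 13 of 16 negative and a median of -0.26. The ligands were split, with 11 of 20 negative and a median of -0.04. Within the semaphorins, on the brightest probe sets, all 4 tested class 6 members had positive differences with a median of 0.30. The 2 tested class 3 members were Sema3e at -0.43 ± 0.25 and Sema3a at -0.03 ± 0.18. Both further probe sets of Sema3e, below the filter, were higher at P49 (means of 9.59 against 9.21 and 7.73 against 7.03). Those of Sema3a and of class 6 members, also below the filter, had both signs. Over all genes tested 50.6% were negative, and the median was -0.00. Further probe sets of the tested members had the sign of the brightest in only 17 of 32 cases.

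The wild-type ages did not overlap in 2 members that were higher at P49 (Sema6b and Sema7a), where 10.4% of all genes did so. They did not overlap in 9 that were lower (Efnb1, Epha3, Nrp1, Nrp2, Plxna2, Plxnb2, Plxnb3, Sema4d and Sema4f), where 11.1% did so. At an unadjusted p under 0.05 stood 7 of the 36, against 9.99% of all genes. Summed oligodendrocyte markers were 392865 to 417445 at P49 and 514844 to 619581 at P21 in wild type, with 5 of 8 called lower, and their part in these values was not tested. Summed Purkinje cell markers overlapped between the wild-type ages, at 629221 to 653250 at P49 and 540826 to 639758 at P21.

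**Figure D5:**
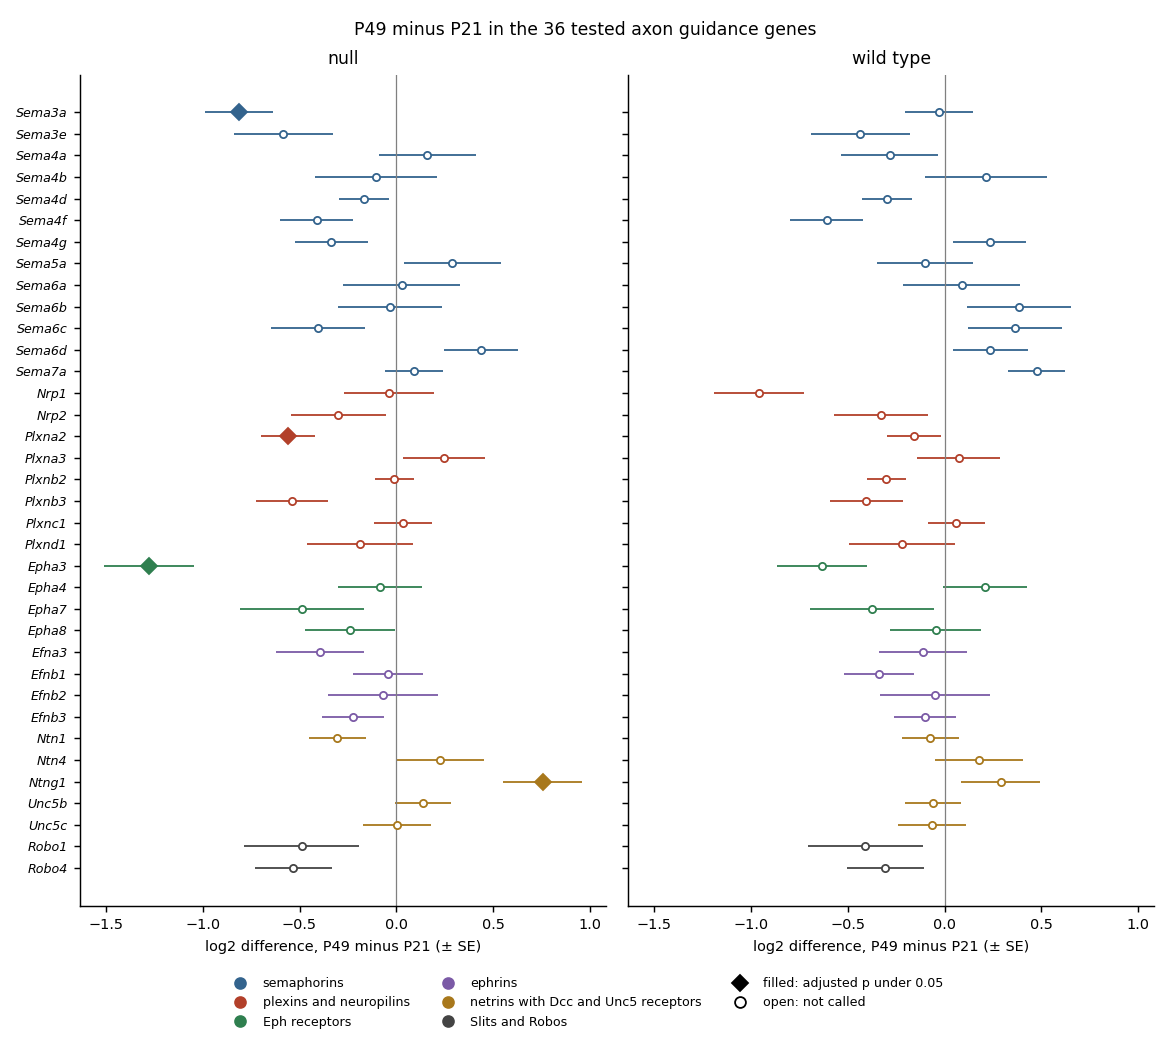
Log2 difference, P49 minus P21, in null (left) and wild-type (right) cerebella for the 36 tested genes, by family, with the standard error from limma. Filled diamonds mark adjusted p under 0.05, reached in the null by Epha3 (-1.28), Sema3a (-0.81), Plxna2 (-0.56) and Ntng1 (0.76), and by no gene in wild type.

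Genes that act downstream of these receptors or beside them were described from a separate list of 94, of which 77 had a probe set and 66 were tested. At P21 none was called between genotypes, against 0.0638% of all genes. At P49 only Ntrk2, the receptor of brain-derived neurotrophic factor, was called, higher in the null at 0.56 ± 0.09 (adjusted p = 0.00207). That was 1 of 66, or 1.52%, against 2.65% of all genes. In the interaction only Rnd2, whose product binds plexins, was called at 0.83 ± 0.16 (adjusted p = 0.0396), against 0.549% of all genes. In wild type only Dpysl4, of the collapsin response mediator proteins that act downstream of Sema3a, was lower at P49, at -0.65 ± 0.11 (adjusted p = 0.0163), against 0.702% of all genes.

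In the null 5 of the 66 were called between the ages. Dpysl4 (-0.75 ± 0.11), its relative Dpysl5 (-0.64 ± 0.17) and the adhesion molecule Ncam1 (-0.62 ± 0.13) were lower at P49, and Rnd2 (0.71 ± 0.12) and Ntrk2 (0.33 ± 0.09) were higher. The share called was 7.58%, against 6.23% of all genes. The list's median difference was -0.14 in the null and -0.03 in wild type, and 42 of 66 genes were negative in the null and 43 of 66 in wild type.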

How the data were processed

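Affymetrix arrays were run on cerebellum of 12 mice. The authors deposited 1 linear intensity per probe set and array. Its mean after trimming 2% at each end was close to 5002 on every array, and the summarising algorithm is not given in the sources used here. A protocol field states an age at killing of P21 for every animal, and the time point labels were used instead. Intensities were transformed as log2(intensity + 16) and quantile normalized, which understates changes of dim genes. Gene names came from the platform annotation and were checked by Entrez identifier in a RefSeq table. Leaving out controls, 20380 probe sets had 1 symbol, 691 several and 1555 none. Genes at or above the 40th percentile (intensity 959) numbered 7835. All were fitted with limma 3.58.1 in R 4.3.3 (4 group means, 12 arrays, eBayes with trend), two-sided, with Benjamini-Hochberg adjustment over all of them and a threshold of 0.05. The fit was run on simulated data with independent normal noise and no outlying array. That cannot show how it handles an array such as null P21 replicate 2. The number of arrays limits the precision.

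Named with values on every array were members called in a comparison and, where none was called, the 3 members with the smallest p. Differences were given for the 2 members of each family with the smallest p at P49 and for age in wild type. Sema4g, Sema6b, Plxnd1 and other members named for groups that did not overlap were chosen after their values were seen, as were promoters. So were Plxnc1, named as the receptor gene of Sema7a, and Plxna3, named beside the other plexins. The members and lists were chosen with earlier results of these data known. Alternatives were the values as deposited, a pseudocount of 64, no filter, the mean of a gene's probe sets, every probe set, only the arrays compared, a replicate block and arrays left out. Replicate numbers were not used as pairs in the full fit. Correlations of same-numbered deviations ran from -0.18 to 0.19. They were not set against differently numbered arrays, so they cannot settle whether same-numbered arrays shared a batch.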

Additional observations from a re-analysis of the deposited data

How the results depend on the processing

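No member was called between genotypes at P21 or in the interaction under any alternative run, and no call changed direction. At P49 the count of members lower in the null was 1, and it was 3 with only the arrays of the groups compared and 2 without the 3 arrays whose sex label is in doubt. Leaving out 1 array at a time gave 0 to 1 lower and 1 to 2 higher. For age in wild type, counts were 0 in both directions, 1 lower with only the arrays compared (Nrp1), 1 higher without the 3 arrays (Sema7a), and 0 to 1 lower with 1 array left out. For age in the null, the count lower at P49 was 3, and it was 1 with only the arrays compared and 1 without the 3 arrays, and 1 to 3 with 1 array left out. The count higher was 1, and it was 0 with no filter, the mean of probe sets, every probe set or only the arrays compared, and 0 to 1 with 1 array left out. The fit with the replicate block called 2 members lower and 1 higher for age in the null, losing Plxna2 (adjusted p = 0.0503), and moved no other count of members. Over all genes, fitting only the arrays compared gave 239 higher and 168 lower at P49 (119 and 89 in the full fit), 51 and 77 for age in wild type (13 and 42) and 84 and 62 for age in the null (218 and 270). The cause was not tested. Without the 3 arrays whose sex label is in doubt they were 207 and 145 at P49, 65 and 60 for age in wild type, and 316 and 245 for age in the null. With 1 array left out, higher calls at P49 ran from 65 (without null P49 replicate 3) to 190 (without null P21 replicate 2) and lower calls from 35 to 131. For age in the null they ran from 78 to 289 higher and from 93 to 356 lower, and for age in wild type from 1 to 43 higher and from 12 to 69 lower. At P21, where the full fit called 4 higher and 1 lower, they ran from 3 to 14 and from 0 to 13, and only the arrays compared gave 0 and 0. In the interaction, 27 and 16 in the full fit, they ran from 14 to 42 and from 3 to 29, and lower calls were 10 with no filter or with the replicate block. Leaving out the 3 arrays left a single null P21 array, which was assumed to vary like the others. With 3 animals a group and no background estimate, dim members such as the Slits and EphB receptors were tested only in the fit with no filter, where none of the 23 dim members was called.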

Other observations

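Among the members below the filter, Sema3f and Robo3 had wide differences. Neither was in the full fit, and neither was called in any comparison when all genes were fitted with no filter. Sema3f, a secreted semaphorin that acts through neuropilin 2, had a mean of 9.90 in null P49 and 8.53 in wild-type P49 cerebella. Robo3, a receptor of crossing commissural axons, had a mean of 8.79 in null P21 and 6.79 in wild-type P21 cerebella. At these levels, under the intensity at the filter, the size of a difference is uncertain.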
